A study of Mus musculus with 4 samples.

Results

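The data are FPKM values (fragments mapped to a gene, scaled to the length of its transcript and to the depth of the library) of RNA from sorted TCRβ+CD8αα+ intraepithelial lymphocytes (IELs) of the mouse small intestine, and the genes described here are 10 hormone and granin genes of enteroendocrine cells: Gast, Cck, Gcg, Sct, Chgb, Chga, Pyy, Gip, Ghrl and Nts. They were chosen by name from 19339 listed genes, with earlier results of these libraries known, so that their differences between the genotypes are given as a description and not as a test. All 10 were listed in every library, 8 were above 0 in all of them, and 7 reached at least 1 FPKM in at least 2 libraries. The study has 4 libraries on the C57BL/6 strain. Control replicates 1 and 3 came from Kdm6b fl/fl mice, which carry floxed Kdm6b alleles and no Cre. The other 2, replicates 1 and 3, are labelled Kdm6b-deficient and came from Kdm6b fl/fl-CD4Cre mice, in which the Cd4 promoter drives Cre in the T cell lineage and not in the epithelium. Each library was made from RNA pooled over several mice, whose ages the labels do not give, and nothing in the labels ties equal replicate numbers to a shared day or batch. The comparison addresses what loss of the histone H3K27 demethylase Kdm6b from T cells changes in these IELs.

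Enteroendocrine cells are scattered hormone-secreting cells of the gut epithelium that arise from crypt progenitors under the transcription factors Neurog3 and Neurod1. They store peptide hormones together with granins in dense-core granules, and release them when nutrients reach receptors on their surface. Lymphocytes are not known as a main source of these peptides. Gastrin is made chiefly by G cells of the gastric antrum and, in small amounts, by cells of the proximal duodenum, and it drives acid secretion. Cholecystokinin, the product of Cck, comes from I cells of the proximal small intestine and empties the gallbladder.

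The libraries hold T cell RNA together with epithelial RNA. All 10 T cell and IEL markers were present, with Cd3e between 304 and 505 FPKM. Their summed FPKM was 9060 and 7099 in control replicates 1 and 3 and 5962 and 4511 in deficient-labelled replicates 1 and 3, all 10 had a negative log2 difference, and 7 of the 10 were lower in both deficient-labelled libraries (18.6% of all genes that passed the filter). The part of this in the hormone gene differences was not tested. Of the genes of cells the sort excludes, Cd8b1 was between 0 and 1.64 FPKM, Cd4 between 3.17 and 30.6 FPKM and the myeloid gene Lyz2 between 253 and 626 FPKM. All 10 general epithelial markers were present as well. Their summed FPKM was 783 in control replicate 1, 2515 in control replicate 3, 2274 in deficient-labelled replicate 1 and 6278 in deficient-labelled replicate 3. Kdm6b itself was at 16.5 and 16.0 FPKM in controls and at 18.2 and 11.1 FPKM in the libraries labelled Kdm6b-deficient, so it was not lower in deficient-labelled replicate 1. FPKM over whole transcripts does not show whether the floxed exons were lost. The genotype is therefore taken from the labels throughout. In such bulk RNA, fewer cells of a type and less RNA per cell cannot be told apart. FPKM totals were between 578491 and 646671, and the step between low values placed deficient-labelled replicate 3 at 0.82 of the depth of control replicate 1, with the other two near it.

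Gastrin and cholecystokinin, whose differences had opposite signs, belong to one peptide family and are active through the same carboxy-terminal tetrapeptide. The coding stretches that hold this shared end are shown because they are what the 2 hormones have in common. The stretch for Gast lies in exon 3 of its 3 exons at chr11:100336834-100336878 on the plus strand of GRCm38, and that for Cck in exon 3 of 3 at chr9:121490098-121490142 on the minus strand. Capitals mark the 4 codons of the tetrapeptide, and the transcripts are those of GENCODE vM21.
Gast: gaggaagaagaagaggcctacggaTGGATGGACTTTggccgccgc
Cck: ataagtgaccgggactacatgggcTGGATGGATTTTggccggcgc
Over these 45 bases 26 were identical, and no codon before the capitals was shared. The longest exact run that the Gast and Cck transcripts share anywhere was 12 bases. Among all 45 pairs of the 10 genes it was between 8 and 13 bases.

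Gast (Entrez 14459) lies at chr11:100334407-100336997 on GRCm38.p6, between Eif1 and Hap1. The 250 bases before the RefSeq start of Gast and of Cck are shown, since their levels stood in opposite order between the genotypes. Capitals mark matches, on either strand, to the E-box CANNTG, which basic helix-loop-helix factors such as Neurod1 bind, the TATA box TATAAA, the GC box GGGCGG and the cAMP response element TGACGTCA. The Gast window is chr11:100334157-100334406 on the plus strand and the Cck window is chr9:121495695-121495944 on the minus strand.
Gast: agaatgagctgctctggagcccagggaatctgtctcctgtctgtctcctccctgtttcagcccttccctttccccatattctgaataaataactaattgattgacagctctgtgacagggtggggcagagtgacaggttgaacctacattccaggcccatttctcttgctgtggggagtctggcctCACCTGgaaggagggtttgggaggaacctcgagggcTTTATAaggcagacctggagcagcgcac
Cck: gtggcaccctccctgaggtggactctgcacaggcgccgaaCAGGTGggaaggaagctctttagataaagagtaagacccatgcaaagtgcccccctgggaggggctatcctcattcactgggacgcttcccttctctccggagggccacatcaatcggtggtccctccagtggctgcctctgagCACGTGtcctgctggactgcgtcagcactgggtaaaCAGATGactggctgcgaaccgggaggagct
The Gast window held 1 E-box, whose first base is 64 bases before the start, and 1 match to the TATA box, read on the opposite strand, 28 bases before it. The Cck window held 3 E-boxes and none of the other motifs. RefSeq promoters were found for all 10 genes, with 14 starts in all. An E-box stood in 12 of the 14 windows (and in at least 1 window of each of the 10 genes), against 66.2% of all 32851 promoter windows of this length. The TATA box was found for 3 genes (Gast, Gcg and Sct; 12.4% of all windows), the GC box for 3 (Sct, Chgb and Chga; 32.7%) and the cAMP response element for Chgb only (1.55%). These matches describe the letters and not binding.

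Gastrin RNA was abundant in controls and nearly absent from the libraries labelled Kdm6b-deficient. Gast was at 65.4 FPKM in control replicate 1 and 35.6 FPKM in control replicate 3, against 0.45 and 0.27 FPKM in deficient-labelled replicates 1 and 3. The control mean was 50.5 ± 21.1 FPKM and the deficient-labelled mean 0.36 ± 0.13 FPKM (SD, n = 2 each). Both controls were high, both deficient-labelled libraries were near 0, and the groups did not overlap. On the log2(FPKM + 1) scale the difference, deficient-labelled minus control, was −5.18 with a moderated standard error of 0.37, and it ranked first from the lowest of the 12009 genes that passed the filter. Gast passed that filter only through the controls, where it is high.

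The size of the difference in Gast is limited by how few fragments the low libraries held. From the step between low FPKM values, the 4 libraries held an estimated 297, 159, 2.04 and 1.005 fragments of Gast, in the order control 1, control 3, deficient-labelled 1 and deficient-labelled 3. Summed by group these are 456 and 3 fragments, so that Gast was 139-fold higher in controls per fragment sequenced, with a 95% interval of 47.4 to 678 (exact binomial, counting error only). Within controls Gast ranked 1667th and 3003rd among the listed genes, and in the deficient-labelled libraries 12856th and 14168th. It took 82.8% and 60.3% of the summed FPKM of the 10 genes in controls and 0.56% and 0.37% in the deficient-labelled libraries.

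**Figure D1:**
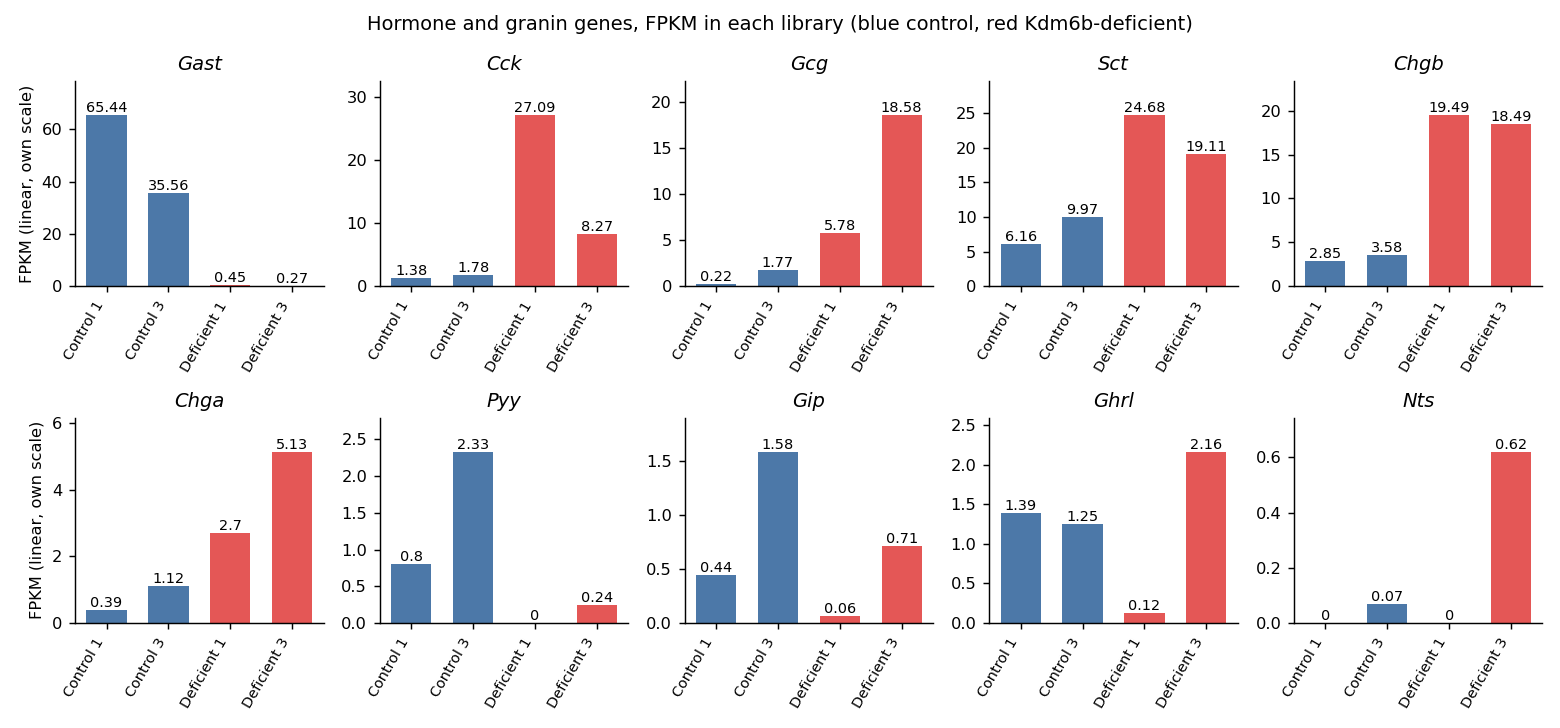
FPKM of the 10 hormone and granin genes in each of the 4 libraries, with 1 panel a gene on its own linear axis starting at 0. Blue bars are control replicates 1 and 3, and red bars are deficient-labelled replicates 1 and 3. Gast stands at 65.4 and 35.6 in controls and at 0.45 and 0.27 in the others, while Cck, Gcg, Sct, Chgb and Chga are higher in both red bars than in both blue ones.

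The genes around Gast were looked at next. Of 64 RefSeq genes within 500 kb on either side, 15 passed the filter, and the lowest log2 difference among them was that of Nt5c3b at −0.42. None was below −1, as were 0.441% of all genes that passed, so this count says little about the region. The nearest gene before it, Eif1, a translation initiation factor gene, was at 703 and 678 FPKM in controls and 624 and 570 FPKM in the deficient-labelled libraries. The nearest gene after it, Hap1, was between 0.12 and 0.52 FPKM in all libraries. Of the 15, only the keratin Krt19 was above a log2 difference of 1, at 1.52 (6.2% of all genes that passed).

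Cholecystokinin stood the other way round. Cck (Entrez 12424, chr9:121489824-121495694) was at 1.38 and 1.78 FPKM in controls and at 27.1 and 8.27 FPKM in deficient-labelled replicates 1 and 3. The groups did not overlap, and deficient-labelled replicate 1 stood well above replicate 3. The means were 1.58 ± 0.28 FPKM in controls and 17.7 ± 13.3 FPKM in the deficient-labelled libraries (SD, n = 2 each), a log2 difference of 2.65 with a standard error of 0.56. Cck ranked 8th from the highest of all genes that passed the filter. The estimated fragments summed to 27 in controls and 291 in the deficient-labelled libraries, a ratio of 11.8 (95% interval 7.92 to 18.2, counting error only). A long non-coding RNA gene, Gm38661, overlaps Cck, and it was not analysed here.

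Proglucagon, from which L cells cut the incretin GLP-1, was also higher. Gcg was at 0.22 and 1.77 FPKM in controls and at 5.78 and 18.6 FPKM in deficient-labelled replicates 1 and 3, with no overlap. Its log2 difference was 2.65 with a standard error of 0.65. The 2 deficient-labelled libraries stood in the opposite order for these hormones, with Cck highest in replicate 1 and Gcg highest in replicate 3. Control replicate 1 held an estimated 2.96 fragments of Gcg, so its share of this difference rests on very few reads.

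Secretin, the S cell hormone that calls for pancreatic bicarbonate, had the highest mean of these genes in the deficient-labelled libraries, although Cck stood above it in replicate 1. Sct was at 6.16 and 9.97 FPKM in controls and at 24.7 and 19.1 FPKM in deficient-labelled replicates 1 and 3. The groups did not overlap, and the log2 difference was 1.36 with a standard error of 0.31. The estimated fragments summed to 85 in controls and 215 in the deficient-labelled libraries, a ratio of 2.76 (95% interval 2.14 to 3.59, counting error only).

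Both granins, which package hormones into dense-core granules, were higher in both deficient-labelled libraries. Chgb was at 2.85 and 3.58 FPKM in controls and at 19.5 and 18.5 FPKM in deficient-labelled replicates 1 and 3, so that each group was tight. Its log2 difference was 2.25 with a standard error of 0.26, and it ranked 13th from the highest. Chga was at 0.39 and 1.12 FPKM in controls and 2.7 and 5.13 FPKM in the deficient-labelled libraries, a log2 difference of 1.47 with a standard error of 0.42. Chgb is the longest of these transcripts that drew many fragments, with an estimated 235 in controls and 1278 in the deficient-labelled libraries, a ratio of 5.94 (95% interval 5.16 to 6.85, counting error only).

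The remaining 4 hormones were low in every library. Pyy, the L cell peptide that curbs appetite, was at 0.8 and 2.33 FPKM in controls and at 0 and 0.24 FPKM in the deficient-labelled libraries, and the groups did not overlap. Its log2 difference was −1.14, and it missed the filter. The estimate was 1 fragment in all in the deficient-labelled libraries against 18 in controls, a ratio of control to deficient-labelled of 16.5 (95% interval 2.60 to 687, counting error only).

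Gip, the K cell incretin, was at 0.44 and 1.58 FPKM in controls and at 0.06 and 0.71 FPKM in the deficient-labelled libraries, and the groups overlapped. Ghrl, which encodes the hunger hormone ghrelin, was at 1.39 and 1.25 FPKM in controls and at 0.12 and 2.16 FPKM in deficient-labelled replicates 1 and 3, which lay on either side of the controls. Nts, which encodes neurotensin, was listed at 0 in both replicates numbered 1, at 0.07 FPKM in control replicate 3 and at 0.62 FPKM in deficient-labelled replicate 3. Log2 differences were −0.52 for Gip, −0.30 for Ghrl and 0.30 for Nts, and the groups overlapped for all 3. The ratio of control to deficient-labelled fragments had a 95% interval of 0.95 to 9.67 for Gip and 0.45 to 4.05 for Ghrl. For Nts the estimate was 1 fragment in controls and 8 in the deficient-labelled libraries, all 8 in replicate 3, a ratio of deficient-labelled to control of 8.73 (95% interval 1.17 to 387, counting error only).

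The levels can be set in order within each genotype on the FPKM scale, which accounts for length. In controls Gast stood first, then Sct (8.07 ± 2.69 FPKM), Chgb (3.22 ± 0.52) and Cck (1.58 ± 0.28), each above the next in both libraries (SD, n = 2 each). From Cck down to Chga the ranges of neighbouring genes overlapped. In the deficient-labelled libraries Sct (21.9 ± 3.94 FPKM) stood first, then Chgb (19.0 ± 0.71), Cck (17.7 ± 13.3) and Gcg (12.2 ± 9.05), whose ranges overlapped from each to the next. Chga followed at 3.92 ± 1.72 FPKM, below Gcg in both libraries, and Gast stood 8th of the 10. The summed FPKM of the 10 genes was 79.1 and 59.0 in controls and 80.4 and 73.6 in the deficient-labelled libraries. Without Gast it was 13.6 and 23.5 in controls and 79.9 and 73.3 in the deficient-labelled libraries.

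Of the 10 genes, 5 (Cck, Gcg, Sct, Chgb and Chga) had a log2 difference above 1, and 2 (Gast and Pyy) one below −1. Among all 19339 listed genes 3.97% were above 1 and 0.357% below −1, and among the 12009 that passed the filter, as Pyy did not, 6.2% and 0.441%. The same 5 were higher in both deficient-labelled libraries than in both controls, and the same 2 were lower in both, against 18.1% and 13.5% of all listed genes and 18.4% and 18.6% of those that passed the filter. The median log2 difference of the 10 genes was 0.83, beside 0.035 for all listed genes. With each library scaled to the general epithelial markers it was −0.42, beside −1.25 for all genes that passed the filter. No gene of the whole table had an adjusted p under 0.05 in limma (0% called, with the smallest adjusted p at 0.193), and 642 genes (5.35%) had an unadjusted p under 0.05. Since known values chose these genes, nothing is read from their counts against the background.

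**Figure D2:**
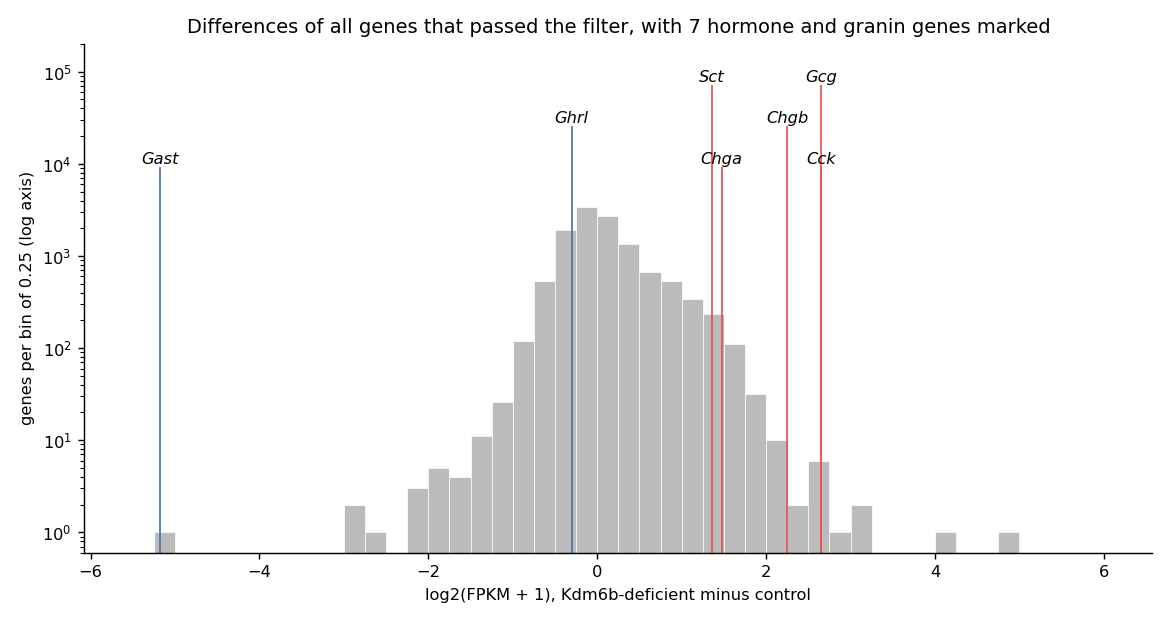
Histogram of log2(FPKM + 1), deficient-labelled minus control, for the 12009 genes that passed the filter, in bins of 0.25 with a log axis of gene counts. Lines mark the 7 hormone and granin genes that passed. Gast at −5.18 stands alone at the low end, Cck, Gcg and Chgb lie in the upper tail at 2.65, 2.65 and 2.25, and Ghrl at −0.30 lies within the bulk.

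Epithelial RNA differed widely between libraries of the same genotype, and its part in the hormone gene differences was not tested. The summed FPKM of the 10 epithelial markers relative to control replicate 1 was 3.21 in control replicate 3, 2.90 in deficient-labelled replicate 1 and 8.02 in deficient-labelled replicate 3. All 10 markers had a positive log2 difference and 8 were above 1 (6.2% of all genes that passed the filter), and 2 (Krt18 and Cldn3) were higher in both deficient-labelled libraries than in both controls (18.4%). Paneth cell markers stood at 8.22, 4.26 and 14.5 times control replicate 1 in the same order, and goblet cell markers at 4.06, 4.10 and 9.39 times. Gast was highest in control replicate 1, where these lists were lowest. The T cell and IEL markers were also highest in control replicate 1, and stood at 0.78, 0.66 and 0.50 times that library in the same order. With each library scaled to the epithelial markers, the log2 differences were −6.43 for Gast, 1.40 for Cck, 1.40 for Gcg, 0.9995 for Chgb, 0.22 for Chga and 0.11 for Sct. Pyy, Gip, Ghrl and Nts were at −2.39, −1.77, −1.55 and −0.95 in this scaling.

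Control replicate 3 and deficient-labelled replicate 1 held nearly the same summed level of the 10 general epithelial markers. Paneth, stomach and distal small intestine markers stood higher in control replicate 3 (distal list 133 against 65.3 FPKM). Proximal small intestine markers stood lower there (19.97 against 26.25 FPKM). The part of these lists in the values below was not tested. The near-equal general markers allow a comparison of 1 library with 1, chosen after the values were seen and without a replicate check. Deficient-labelled replicate 1 minus control replicate 3, the log2 difference was −4.66 for Gast, 3.34 for Cck, 2.16 for Chgb, 1.29 for Gcg, 1.23 for Sct and 0.80 for Chga. Among the genes that passed the filter 3.45% were above 1 and 1.21% below −1 in this pair. Pyy, Gip and Ghrl were at −1.74, −1.28 and −1.01 and Nts at −0.10, and of these Pyy, Gip and Nts had not passed it. The direction of Gast, Pyy and the 5 higher genes in this pair follows from their groups not overlapping and is no further observation.

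**Figure D3:**
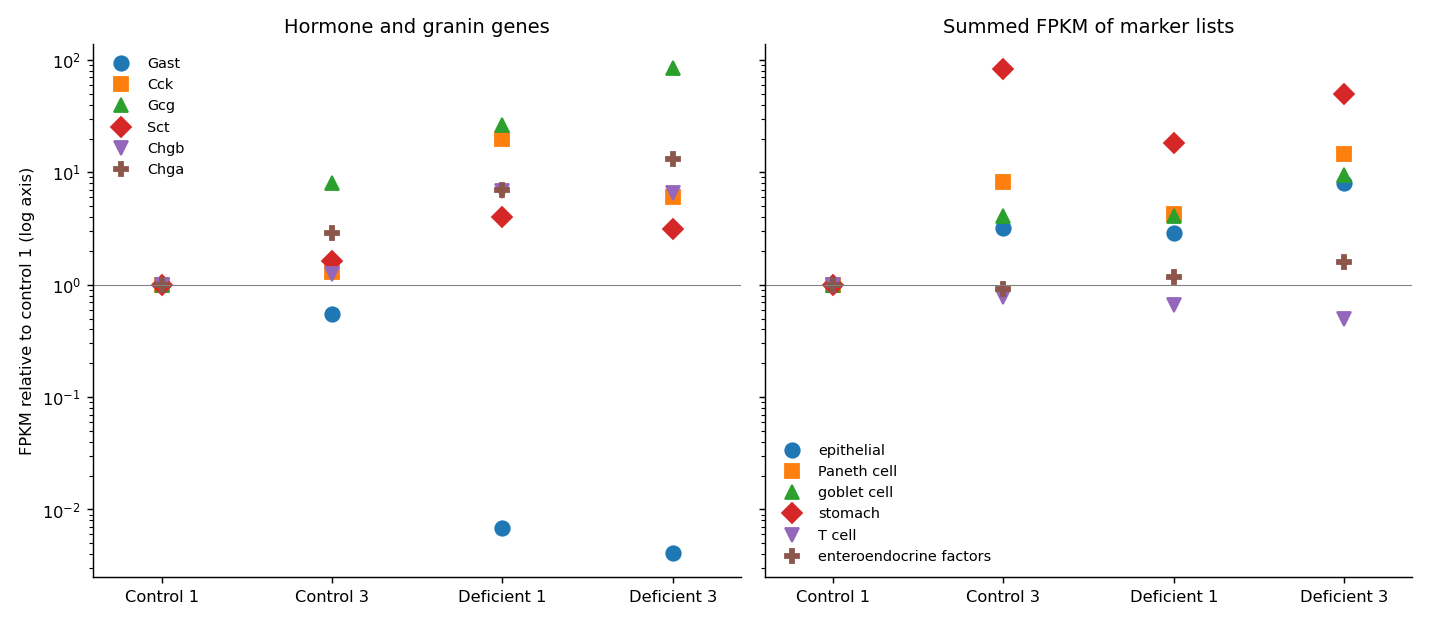
Levels in the 4 libraries relative to control replicate 1 on a shared log axis, with FPKM of 6 hormone and granin genes on the left and the summed FPKM of 6 marker lists on the right. Epithelial markers stand at 3.21, 2.90 and 8.02 in control 3, deficient-labelled 1 and deficient-labelled 3. Gast is near the foot of the axis in both deficient-labelled libraries, and the stomach list is at 83.5, 18.4 and 49.4.

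Stomach markers were looked at because the antrum is the main source of gastrin. The trefoil factor Tff1, a product of gastric surface mucous cells, was at 0.21 and 94.7 FPKM in controls and at 22.6 and 63.2 FPKM in deficient-labelled replicates 1 and 3. Gkn1, Gkn2 and the pepsinogen gene Pgc were likewise lowest in control replicate 1, at 0.06, 0.22 and 2.58 FPKM, the library in which Gast was highest. Control replicate 3 held the most of all 4 genes (24.9, 73.6, 94.7 and 61.8 FPKM for Gkn1, Gkn2, Tff1 and Pgc). The parietal cell gene Atp4a was listed at 0 in 3 libraries and at 0.27 FPKM in deficient-labelled replicate 1. The part of stomach RNA in the values of Gast was not tested.

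Other genes of the enteroendocrine cell were taken from 4 lists, namely further products, granule and processing genes, transcription factors and nutrient sensors. Of 76 listed genes, 23 passed the filter, 6 of these had a log2 difference above 1 (6.2% of all genes that passed) and none one below −1 (0.441%). In limma 0 of the 23 had an adjusted p under 0.05, and 5 had an unadjusted p under 0.05 (5.35% of all genes that passed). Their median log2 difference was 0.45, beside 0.0010 for all genes that passed, and over all 76 listed genes it was 0.16, beside 0.035 for all listed genes. Of the 6 above 1, Tph1 and Foxa1 passed the filter only through the deficient-labelled libraries, where they are high. Tac1 reached 1 FPKM in only 1 control. The counts and the median over the genes that passed are therefore a description. Without control replicate 1 the count above 1 was 2, and without deficient-labelled replicate 3 it was 3.

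Among further products, Tph1, the enzyme that starts serotonin synthesis in enterochromaffin cells, was at 0.16 and 0.20 FPKM in controls and at 7.35 and 1.19 FPKM in deficient-labelled replicates 1 and 3. Its log2 difference was 1.86 with a standard error of 0.66. Tac1, the substance P precursor of the same cells, was at 0.55 and 1.45 FPKM in controls and 4.33 and 5.43 FPKM in the deficient-labelled libraries, a log2 difference of 1.59 with a standard error of 0.37. Both genes were higher in both deficient-labelled libraries, and Tph1, like Cck, was highest in replicate 1. The most abundant product gene was Ddc, a decarboxylase that enterocytes also make, at 63.4 and 69.2 FPKM in controls and 59.8 and 79.5 FPKM in the deficient-labelled libraries. Somatostatin, the D cell hormone, was low, with Sst at 0.31 and 1.26 FPKM in controls and 0 and 1.32 FPKM in the deficient-labelled libraries.

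Of 30 granule and processing genes 7 passed the filter, and none had a log2 difference above 1 (6.2% of all genes that passed). Pcsk1, the convertase that cuts prohormones, was at 0.41 and 0.87 FPKM in controls and 2.01 and 1.99 FPKM in the deficient-labelled libraries, a log2 difference of 0.89. It passed the filter only through the deficient-labelled libraries. The most abundant of the list, the vesicle GTPase gene Rab3a, was between 3.68 and 6.01 FPKM in all libraries. Among genes too low for the filter, the granin Scg2 was listed at 0 in both controls and at 0.31 and 0.22 FPKM in the deficient-labelled libraries. Mboat4, which acylates ghrelin, was at 0.29 and 0.63 FPKM in controls and at 0.25 and 0 FPKM in the deficient-labelled libraries.

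Of 20 transcription factor genes 6 passed the filter. Neurog3, which commits progenitors to the enteroendocrine fate, was at 0.35 and 1.18 FPKM in controls and 1.2 and 1.69 FPKM in the deficient-labelled libraries, so that control replicate 3 and deficient-labelled replicate 1 were nearly equal. Neurod1 was at 0.21 and 0.46 FPKM in controls and 1.27 and 1.18 FPKM in the deficient-labelled libraries, a log2 difference of 0.74. It passed the filter only through the deficient-labelled libraries. The 2 above 1 (6.2% of all genes that passed) were Mlxipl at 1.47 and Foxa1 at 1.07, which other epithelial cells also express. Mlxipl was at 4.25 and 18.5 FPKM in controls and 14.2 and 50.6 FPKM in the deficient-labelled libraries, so the groups overlapped. The most abundant was Mlxip, at 34.2 to 58.5 FPKM. The serotonin lineage factor Fev was listed at 0 in both controls and at 0.37 and 0.32 FPKM in the deficient-labelled libraries, under the filter.

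Of 15 nutrient sensor genes 4 passed the filter, and 2 were above 1 (6.2% of all genes that passed). Ffar2, a receptor for short-chain fatty acids, was at 1.52 and 2.73 FPKM in controls and 5.61 and 5.07 FPKM in the deficient-labelled libraries, a log2 difference of 1.05. The glucose transporter Slc5a1, also an enterocyte gene and the most abundant of the list, had a log2 difference of 1.37. Ffar4, a receptor for long-chain fatty acids on L and I cells, was at 0.83 and 1.89 FPKM in controls and 2.51 and 2.91 FPKM in the deficient-labelled libraries. In the pair of deficient-labelled replicate 1 and control replicate 3, 2 genes of the 4 lists that passed the filter were above 1 (3.45% of all genes that passed), Tph1 at 2.80 and Tac1 at 1.12, and the granule gene Scg5, under the filter, was at 1.21.

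**Figure D4:**
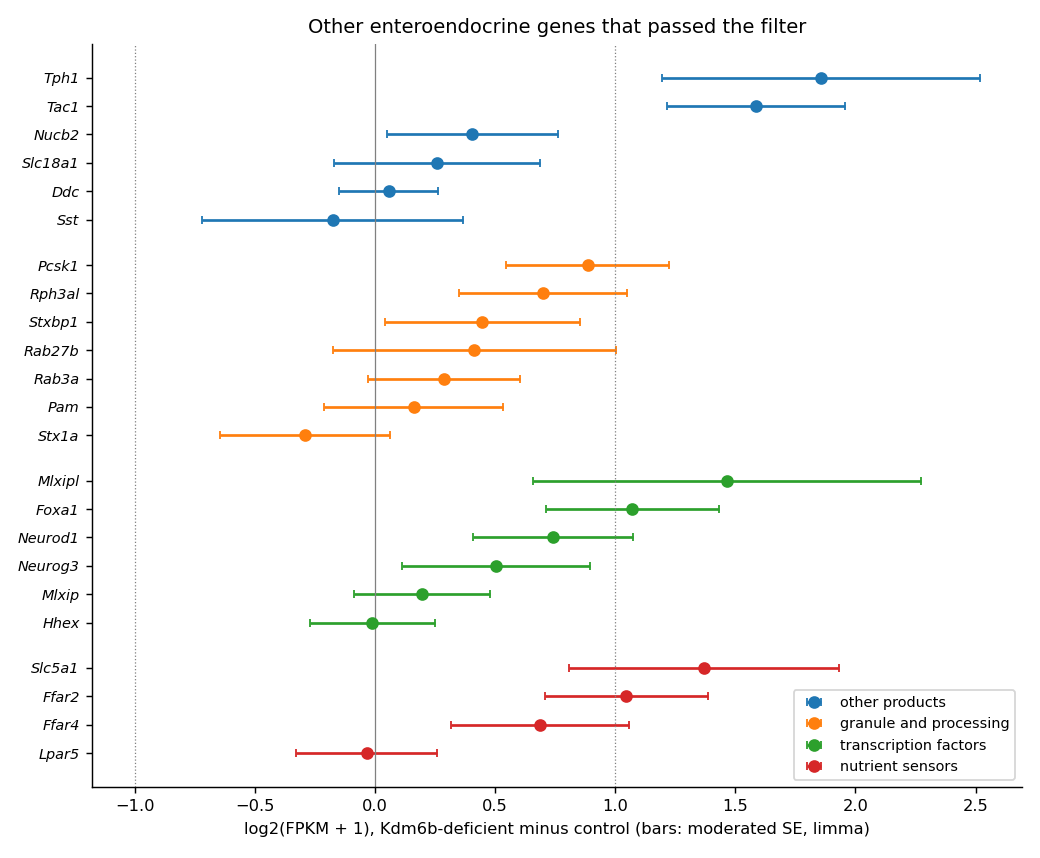
Log2 differences, deficient-labelled minus control, of the 23 other enteroendocrine genes that passed the filter, in 4 lists by colour, with moderated standard errors from limma as bars and dotted lines at 1 and −1. Tph1 (1.86), Tac1 (1.59), Mlxipl (1.47), Slc5a1 (1.37), Foxa1 (1.07) and Ffar2 (1.05) lie above 1, none lies below −1, and none had an adjusted p under 0.05.

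Receptors and peptidases of these hormones were mostly low. Of 15 listed genes, 4 passed the filter and none had a log2 difference above 1 (6.2% of all genes that passed) or below −1 (0.441%). Glp1r, the GLP-1 receptor, was at 15.8 and 10.5 FPKM in controls and 9.55 and 8.22 FPKM in the deficient-labelled libraries, a log2 difference of −0.49 with an adjusted p of 0.76 in limma. Dpp4, the peptidase that inactivates incretins and the most abundant of the list, was at 20.3 and 22.5 FPKM in controls and 24.2 and 29.0 FPKM in the deficient-labelled libraries. The cholecystokinin receptor Cckar was listed at 0 in 3 libraries and at 0.09 FPKM in deficient-labelled replicate 3, and Cckbr, the gastrin receptor, was not analysed here. Neurons also make Cck and Nts, and of 9 enteric neuron and glia markers none passed the filter, with a summed FPKM between 1.29 and 1.83.

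The genes most like Gast were sought among all genes that passed the filter, by the mean absolute difference of centred log2(FPKM + 1) over the 4 libraries. They were the predicted transcripts BGI_novel_G000420 (1.51) and BGI_novel_G000447 (1.56), and Klra6 (1.57), Klra7 (1.61) and Klre1 (1.63), which encode natural killer cell type receptors. Near-identical relatives of Klra6 and Klra7 could share reads with them. The most abundant of them, Klra7, was at 57.7 and 63.6 FPKM in controls and at 23.8 and 9.14 FPKM in the deficient-labelled libraries, a log2 difference of −1.96. The log2 differences of these genes lay between −2.16 and −1.92, against −5.18 for Gast, so none was close to it.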

How the data were processed

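RNA-seq of TCRβ+CD8αα+ IELs sorted from Kdm6b fl/fl and Kdm6b fl/fl-CD4Cre mice was analysed in 4 libraries, 2 a group by the genotype label. The deposited values are FPKM, which the authors made from reads mapped to mm10 (GRCm38.p5 in the submitters' processing notes) with HISAT and Bowtie2 2.2.5 and quantified with RSEM 1.2.8, so they are already scaled to length and depth and counts were not used. The hormone genes and all marker lists were chosen with earlier results of these data known. Symbols and coordinates came from RefSeq GRCm38.p6, transcripts from GENCODE vM21.

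The filter kept genes that reached 1 FPKM in 2 or more libraries, and these were compared as log2(FPKM + 1) with lmFit and eBayes with a trend (limma 3.58.1, R 4.3.3), with Benjamini-Hochberg adjustment, and the model was tested on simulated data. Differences are deficient-labelled minus control. Fragments were estimated by dividing FPKM × (length − 140 bases) by the library's step, found from genes of 1 transcript of 400 to 1500 bases, of whose low values 71.8% to 78.5% fell within 0.15 of a whole fragment (131 to 508 genes). Intervals are exact binomial at 95% and cover counting error only, since fragments without molecular identifiers are not independent molecules. P-values measure the spread between libraries, which may be technical.

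The rule for named genes took all 10 hormone genes, the 5 genes most like Gast, Kdm6b, T cell and sort gate genes as checks and, of each other list, the most abundant gene, those at 0 in every library (lists of up to 20 genes) and at most 8 that passed the filter with a log2 difference beyond 1, and some of these are given only as counts. Ada, Pdx1, Cybrd1, Pgc, Trpm5, Dclk1, Pou2f3, Ins1, Prss2, Ctrb1, Scg5, Sst, Pcsk1, Scg2, Mboat4, Neurog3, Neurod1, Fev, Ffar4, Glp1r, Cckar, Atp4a and the Gast neighbours were chosen after their values were seen. Alternatives were other pseudocounts (0.1 and 0.01), filters, scalings, a replicate block, leaving out each library, and 1 pair of libraries chosen after seeing the data.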

Additional observations from a re-analysis of the deposited data

How the results depend on the processing

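Gast, Pyy and the 5 genes that were higher kept their direction under the 4 scalings, and the other settings could not turn it, since their groups do not overlap. Over the 14 alternatives run for single genes, Gast lay between −7.07 and −4.66 on the log2 scale, Cck between 1.40 and 3.45, Gcg between 1.29 and 4.02, Chgb between 0.9995 and 2.64, Chga between 0.22 and 2.47 and Sct between 0.11 and 1.75. Pyy lay between −4.78 and −0.69, so it was not below −1 in every setting. The direction of Ghrl and Nts changed with the setting. The scaling to epithelial markers moved the median of all genes to −1.25 and called 1 gene in the whole table, Gast. Gast was chosen with earlier results known, so this call is no test. The same scaling gave a median of −0.42 for the 10 genes, with 2 above 1 and 4 below −1. Under it 1 was higher in both and 4 lower in both deficient-labelled libraries, and 0 other enteroendocrine genes were above 1. The scaling to T cell genes moved the median of all genes to 0.39 and gave 1 hormone gene below −1, 1 lower in both libraries and 10 other enteroendocrine genes above 1. Pseudocounts of 0.1 and 0.01 each gave 4 hormone genes below −1 and 10 other enteroendocrine genes above 1, with medians of 1.25 and 1.48 for the 10 genes against 0.83. The filter at 5 FPKM left 3 other enteroendocrine genes above 1. In deficient-labelled replicate 1 against control replicate 3, chosen after seeing the data, 2 other enteroendocrine genes were above 1, 4 hormone genes were below −1, 5 were lower and the median was 0.35. Leaving out each library gave 0 genes with an adjusted p under 0.05, a median between 0.53 and 1.01, 5 hormone genes above 1, 1 to 3 below −1, 5 to 7 higher and 2 to 4 lower in all deficient-labelled libraries, and 2 to 9 other enteroendocrine genes above 1. Without control replicate 3, and without deficient-labelled replicate 1, 1 hormone gene was below −1, and without deficient-labelled replicate 3, 4 were lower. Where a single library was left in a group it was assumed to vary like the other group. The cause of these changes was not tested. The fit with a replicate block called 1019 genes with an adjusted p under 0.05 against 0 without it (8.49% of the genes that passed the filter). Among them were 6 of the 7 hormone genes and 4 of the 23 other enteroendocrine genes that passed. These genes were chosen with earlier results known, so their calls are a description and not a test. Same-numbered libraries deviated together with a correlation of 0.56 across genes, but the labels give only a shared number. Median-of-ratios scaling, quantile normalization, no filter and a fit without a trend moved no count or median by over 1.5 times or beyond the spread of the replicates. Depth limits Pyy, Gip, Ghrl and Nts, which had at most 18 estimated fragments a group.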

Other observations

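The most abundant epithelial genes were Krt8 of the general list (275 and 987 FPKM in controls, 875 and 2518 FPKM in deficient-labelled replicates 1 and 3), Defa24 of Paneth cells, Tff3 of goblet cells, Fabp1 of enterocytes and Olfm4 of crypts. Each of these 5 was lowest in control replicate 1 and highest in deficient-labelled replicate 3, with log2 differences between 1.39 (Fabp1) and 1.52 (Olfm4). The largest differences of the general list were those of Krt18 (1.71), Krt19 and Krt8, of the goblet list Spink4 (2.05) and Clca1 (1.75), of the Paneth list Itln1 (1.71) and Ang4 (1.65), and of the crypt list Olfm4, Smoc2 (1.39) and Ascl2 (1.31). Gzmb, the granzyme that was the most abundant T cell marker, was at 3378 and 2488 FPKM in controls and at 1515 and 1279 FPKM in the deficient-labelled libraries.

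Some lists that bear on where hormone RNA could come from belong in no comparison above. Of 6 tuft cell genes listed, the defining Pou2f3 was at 0 in 3 libraries and at 0.04 FPKM in deficient-labelled replicate 3, and Trpm5 and Dclk1 were at most 0.27 FPKM. Of 4 pancreatic genes listed, only Cela1 passed the filter, at 162 and 109 FPKM in controls and 117 and 53.8 FPKM in the deficient-labelled libraries, and Ins1, Prss2 and Ctrb1 were at most 0.72 FPKM. Among genes of the proximal small intestine, where gastrin, secretin and cholecystokinin cells lie, the duodenal and jejunal factor Gata4 was at 1.33 and 3.17 FPKM in controls and at 7.9 and 13.8 FPKM in deficient-labelled replicates 1 and 3, a log2 difference of 1.88 with an adjusted p of 0.76 in limma. The iron exporter Slc40a1 was at 4.89 and 6.83 FPKM in controls and 10.1 and 13.5 FPKM in the deficient-labelled libraries. The groups overlapped for Ada (6.41 and 9.12 FPKM in controls, 7.38 and 5.96 FPKM in the deficient-labelled libraries) and for the duodenal factor Pdx1 (0.85 and 0.81 FPKM, against 0.79 and 2.74 FPKM), and Cybrd1 was at most 0.27 FPKM. Of the distal genes, the ileal bile acid carrier Fabp6 was at 39.0 and 92.1 FPKM in controls and 37.0 and 122 FPKM in the deficient-labelled libraries, which overlapped, and Slc51b had a log2 difference of 1.06. Of the goblet, Paneth and general epithelial genes, 5 of 9, 0 of 10 and 2 of 10 were higher in both deficient-labelled libraries than in both controls. One of these, Atoh1, the factor that opens the secretory lineage, was at 1.47 and 1.92 FPKM in controls and at 4.51 and 5.89 FPKM in the deficient-labelled libraries. The same held for 2 of 15 absorptive enterocyte genes and 3 of 5 crypt genes, against 18.1% of all listed genes. Among genes of cells outside the sort gate, Lyz2 was at 365 and 253 FPKM in controls and at 396 and 626 FPKM in the deficient-labelled libraries, and Cd4 was between 3.17 and 30.6 FPKM with no separation of the groups. None of the genes named here had an adjusted p under 0.05, and their part in the hormone gene differences was not tested.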
